A study of Mus musculus with 10 samples.

Results

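The genes described here encode enzymes that place or remove chemical marks on histones and DNA. They were the protein-coding genes whose symbol names a lysine demethylase (Kdm), a lysine methyltransferase (Kmt2, Kmt5, Ezh1 and Ezh2, and symbols that begin with Setd), a histone deacetylase (Hdac), a sirtuin (Sirt), a lysine acetyltransferase (Kat), a DNA methyltransferase (Dnmt1 and Dnmt3) or a TET dioxygenase (Tet). The rule gave 71 of the 55471 genes counted, and it used names alone, with no measured value. They were split by textbook activity into 26 writers, which add a mark, and 38 erasers, which remove one. The other 7 members (Kmt2e, Setd3, Setd4, Setd5, Setd6, Dnmt3l and Kdm8) carry a family name but no settled chromatin mark of their own, and were set apart.

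The cells were primary microglia, brain-resident macrophages, from wild-type (WT) mice, kept in DMEM medium with serum and antibiotics. One group had received control gapmers (5 libraries). The other had received gapmers against the long noncoding RNA 3222401L13Rik (5 libraries). A gapmer is a short antisense oligonucleotide that directs RNase H to cut the RNA it binds. No time, dose, age or sex is stated, and nothing says whether the 5 libraries of a group came from separate cultures, so the p-values measure the spread between these libraries, which may be technical.

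A lysine methyl mark acts through its position. Methylation of histone H3 at lysine 4 (H3K4) marks active promoters and enhancers, H3K36 methylation follows transcribed gene bodies, and H3K9 and H3K27 methylation go with silent chromatin. Acetylation of histone tails loosens chromatin, and deacetylases act inside corepressor complexes. DNA methyltransferases place methyl groups on cytosines of CG pairs, and TET enzymes oxidise them, the first step of their removal. In microglia and other macrophages such enzymes are known for shaping inflammatory gene programmes.

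The 10 libraries held 4321316 to 6636082 reads, and the 71 genes took 0.556% to 0.582% of them, with overlapping groups. Reads of the targeted 3222401L13Rik were 30, 29, 28, 33 and 34 in control replicates 1 to 5 and 22, 38, 24, 33 and 29 in the libraries labelled knockdown, so the groups overlapped and the target did not check the labels. Its log2 fold change was -0.17 (SE 0.23, adjusted p = 0.541 from the quasi-likelihood test in edgeR). Every direction below therefore belongs to the labels, not to a measured loss of the target. Of the 10 microglia markers, Tmem119 stood at only 1.23 reads per kb per 1000000 in control libraries and P2ry12 at 4.48, while the summed level of all 10 was 1441 to 1776 in control and 1739 to 2028 in knockdown-labelled libraries. Summed astrocyte markers stood at 32.1 to 35.6 against 31.4 to 38.9, oligodendrocyte markers at 13.2 to 14.5 against 11.7 to 14.2, endothelial and fibroblast markers at 14.6 to 16.6 against 12.4 to 14.3, and neuron markers at 6.79 to 10.8 against 3.72 to 6.05. The endothelial marker Cldn5 had 0 reads in a library, and Mog, Tubb3, Cldn5, Dcn and Lum were too low to be tested. With TMM scaling 9 of 10 microglia markers rose and none fell, 2 of 8 astrocyte markers rose and 2 fell, 2 of 7 oligodendrocyte markers fell, 6 of 7 neuron markers fell, and of 5 endothelial and fibroblast markers 1 rose and 4 fell. Of all tested genes 22.9% rose and 31.3% fell. Genes with a like share of background reads are set beside these counts in the next paragraph. The part of other cell types in the values below was not tested.

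A further difference ran between the groups. Reads on 1135 olfactory receptor genes, which are known mainly from olfactory neurons, gave a background density of 0.599 ± 0.147 reads per kb of exon per 1000000 in control libraries and 0.257 ± 0.0674 in those labelled knockdown (SD, 5 libraries a group; two-sided p = 0.00794, exact permutation over 252 splits). Density times exon length gives the reads of a gene that could be background, and these as a percentage of all its reads are here called its background share. For the targeted 3222401L13Rik the share was 48.0%. Its log2 fold change was 0.32 (SE 0.37, adjusted p = 0.615, edgeR) with such reads subtracted and scaling on genes under a 5% share. The median share was 5.40% for the 71 genes and 17.4% for all tested genes. For writers it was 4.33% and for erasers 7.52%. It was 0.494% for the microglia markers, 14.4% for astrocyte, 28.3% for endothelial and fibroblast, 41.0% for oligodendrocyte and 49.7% for neuron markers. With TMM scaling, rises made up 87.5% of the 853 genes below 1%. Between 5% and 20% the rises were 15.2% and the falls 6.48%, and at 20% or more the falls were 62.6%. With scaling on genes under a 5% share, none of the 10 microglia markers rose or fell. Whether the marker lists differ from genes of like share was not tested.

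All 71 genes passed the filter on low counts, in a test of 19263 genes. Levels below are reads per kb of exon per 1000000 TMM-scaled reads, a per-length scale on which genes can be compared. In control libraries the median level of the 71 genes was 7.04 (quartiles 2.92 and 11.5, range 1.07 to 29.1), against 3.26 (quartiles 1.36 and 9.01) for 15556 tested protein-coding genes. Writers had a median level of 9.04, with 12 of 26 above 10 and 2 below 2. Erasers had a median of 5.28, with 10 of 38 above 10 and 8 below 2. The lower median of the erasers lay with the deacetylases: it was 3.34 for the 11 Hdac genes and 3.0 for the 7 sirtuins, but 8.93 for the 17 lysine demethylases, close to the 9.1 of the 15 lysine methyltransferases.

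**Figure D1:**
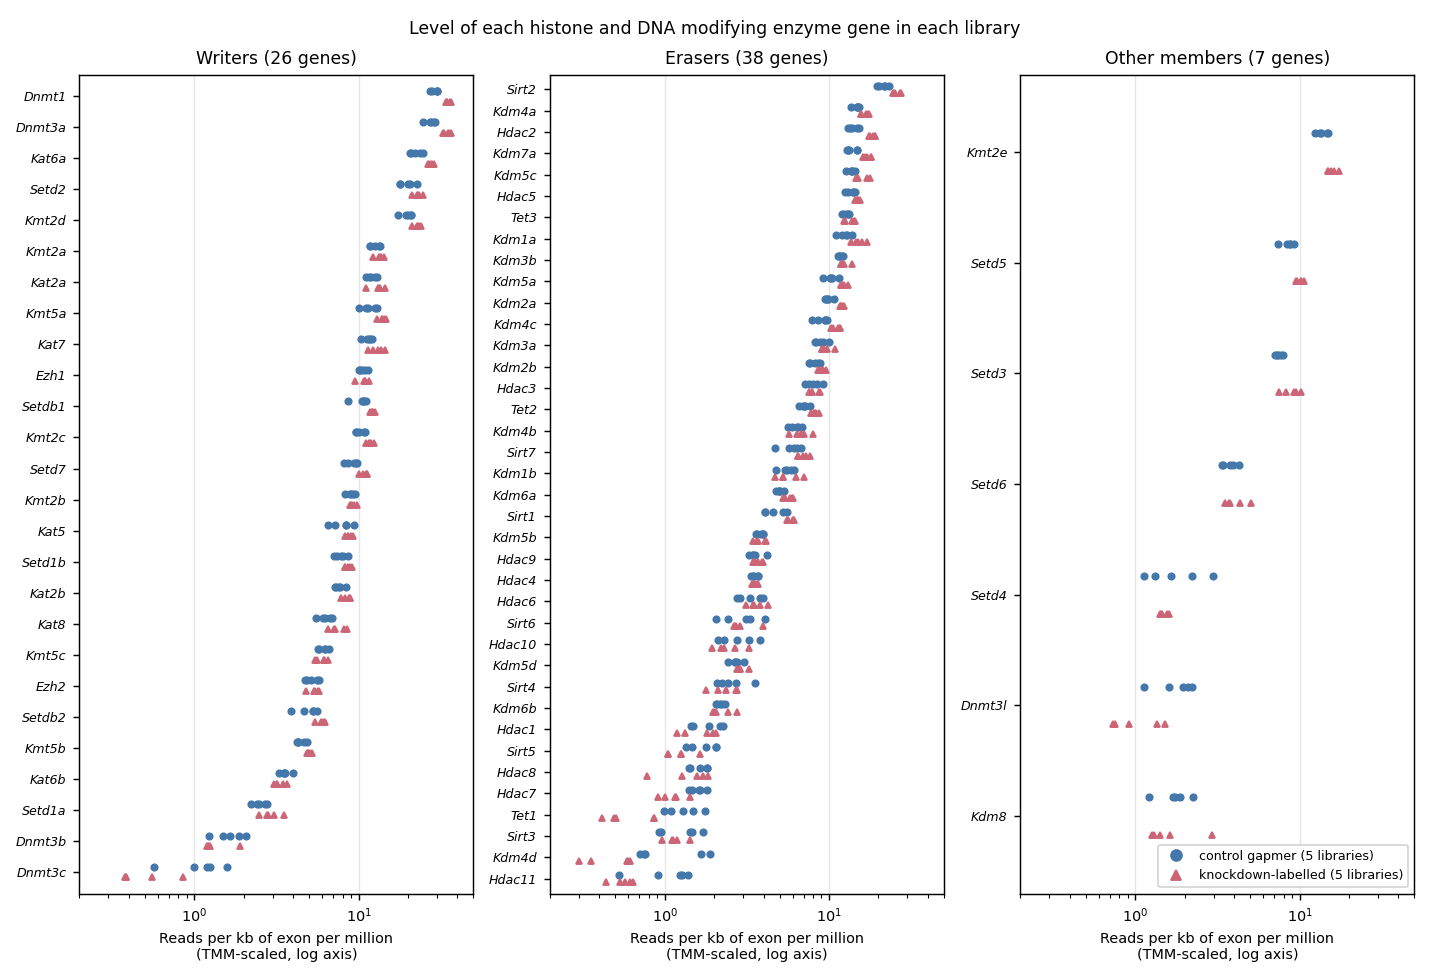
Level of each of the 71 genes in each library, as reads per kb of exon per 1000000 on a log axis, ordered by mean. Circles are the 5 control libraries and triangles the 5 knockdown-labelled ones; Dnmt1 leads the writers at a control mean of 29.1, Sirt2 the erasers at 21.2, and the lowest rows (Dnmt3c, Kdm4d, Hdac11) lie near 1.

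Among the writers the order of control levels began with the maintenance DNA methyltransferase Dnmt1 (29.1 ± 1.405, SD, n = 5) and the de novo methyltransferase Dnmt3a (27.5 ± 1.74), whose ranges overlapped. The acetyltransferase Kat6a followed at 22.4 ± 1.73. Next were the H3K36 trimethylase Setd2 at 19.8 ± 1.99 and the enhancer H3K4 methylase Kmt2d at 19.7 ± 1.41, which differed by less than their spread. Among the erasers the tubulin and histone deacetylase Sirt2 led at 21.2 ± 1.48. The H3K9 and H3K36 demethylase Kdm4a (14.7 ± 0.660) and the class I deacetylase Hdac2 (14.1 ± 0.905) came next and were within their spread of each other. Hdac1, the close partner of Hdac2, stood at only 1.85 ± 0.379. Of the 50-base stretches of Hdac1 transcripts, 35.5% also occur in other genes, mostly the processed pseudogene Gm10093, so its count is uncertain and may miss reads that match both. Other genes also covered 24.6% of the exon bases of Kdm3b, 22.4% of those of Hdac4, 17.9% of Hdac11, 12.7% of Sirt3 and 12.1% of Kat5.

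Between the groups, 31 of the 71 genes rose and 7 fell in knockdown-labelled libraries with TMM scaling (edgeR quasi-likelihood test, adjusted p under 0.05 over all genes). The shares were 43.7% and 9.86%, beside a background of 22.9% of all tested genes higher and 31.3% lower. The rises were small, with log2 fold changes from 0.14 for Hdac5 to 0.38 for Hdac2, and the median was 0.12 for the 71 genes and -0.0952 for all tested genes. Of the writers 13 rose and 1 fell (median 0.17), and of the erasers 15 rose and 5 fell (median 0.09). Under a 5% background share 10 of 15 writers (median 0.211) and 11 of 14 erasers (median 0.225) rose, beside 75.5% of all such genes. At 20% or more 1 of 2 writers and 5 of 8 erasers fell, beside 62.6%. In such bulk samples fewer cells of a type and less RNA per cell cannot be told apart. The lysine methyltransferases gave 8 rises in 15 genes and the lysine demethylases 9 rises and 1 fall in 17. The 11 Hdac genes gave 2 rises and 2 falls, and the 7 sirtuins 3 rises and 1 fall. Median background shares were 4.12% for these methyltransferases, 4.46% for the demethylases, 11.8% for the Hdac genes and 13.8% for the sirtuins.

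These directions depended on the scaling. When libraries were scaled only on genes with a background share under 5% (low-share scaling), 2 of the 71 genes rose, Hdac2 and Dnmt3a, and 21 fell, beside 1.62% of all genes higher and 44.6% lower. The members' median became -0.125 while the median of all genes became -0.342. This scaling sets the genes under a 5% share near 0 by design (median 0.244 with TMM, -0.00168 here). The 31 members under 5% are among those genes. Low-share values are therefore relative to that set, and cannot show whether the set itself moved. With background reads subtracted as well, no member rose (edgeR, 2 at an unadjusted p under 0.05) and 7 fell, beside 0.756% and 11.1% of all genes.

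Within sequencing lanes the medians of writers and erasers stayed positive with TMM scaling, and fewer calls passed where fewer libraries were compared. Lane 7 alone (replicates 1 to 3) gave 29 rises and 4 falls, beside 20.7% of all genes higher and 28.9% lower, with medians of 0.22 for writers and 0.11 for erasers. In lane 8 alone (replicates 4 and 5) the medians were 0.155 and 0.116, and 51 of the 71 fold changes were positive, against 53 with all libraries. No member rose there (edgeR, 16 at an unadjusted p under 0.05) and Tet1 alone fell (3 at an unadjusted p under 0.05), beside 0.328% and 0.749% of all genes.

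Fold changes of members, like those of other genes, ran from positive to negative as the background share grew. Of the 31 members under 5%, 23 rose, and the median log2 fold change was 0.21. Of all 4728 tested genes under 5%, 3570 rose (75.5%), and their median was 0.24. Of 27 members between 5% and 20%, 8 rose (median 0.11), and of all 5506 such genes 15.2% rose and 6.48% fell (median 0.07). All 13 members at 20% or more had negative fold changes, and 7 of them fell. Their median was -0.476. The 9014 tested genes at 20% or more had a median of -0.811, and 62.6% fell. The 31 rises all lay under a 20% share and the 7 falls all above it.

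**Figure D2:**
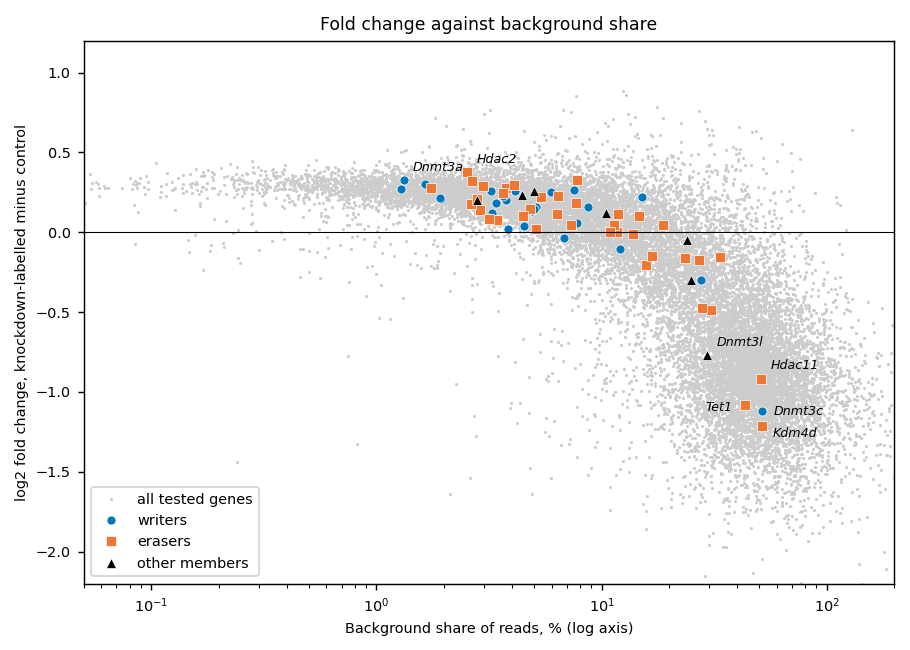
Log2 fold change, knockdown-labelled minus control, against the background share of a gene in percent (log axis), for all tested genes (grey) and for writers, erasers and other members (symbols); genes beyond the axis limits are not drawn. The symbols follow the grey band, from Dnmt3a and Hdac2 near 0.3 to 0.4 at a low share down to Kdm4d at -1.21 with a share of 51.5%.

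In 18 members every knockdown-labelled library was above every control library, and in 2 (Tet1 and Kdm4d) every one was below, beside 12.6% of all tested genes above and 14.2% below on TMM-scaled counts. The writers and erasers stand side by side in the plot of fold changes with both scalings.

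**Figure D3:**
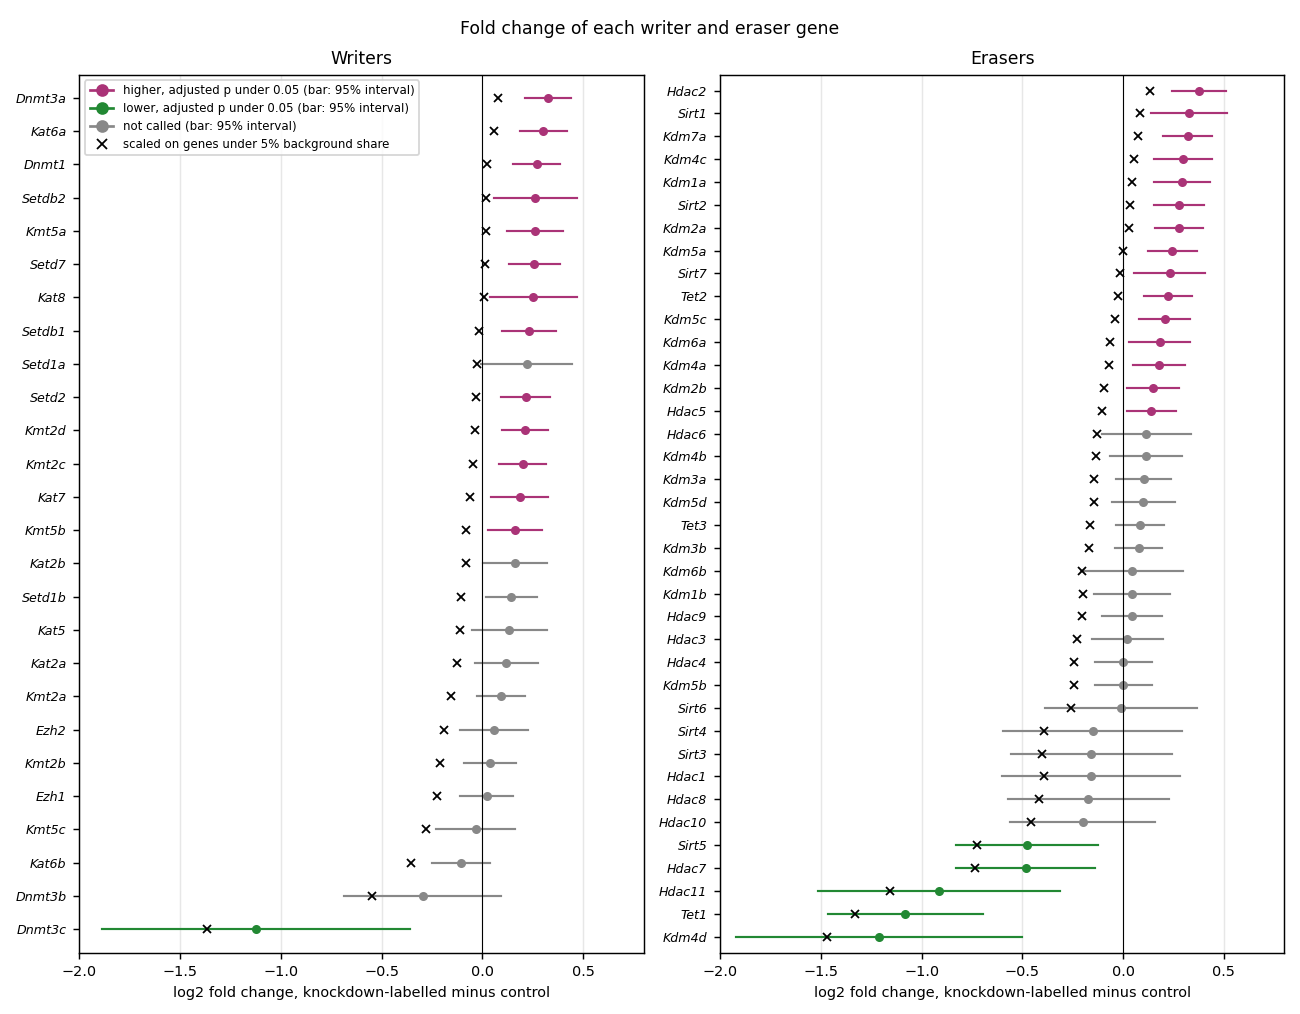
Log2 fold change of the 26 writers and 38 erasers, knockdown-labelled minus control, with TMM scaling (points, 95% intervals) and with scaling on genes under a 5% background share (crosses). Crosses lie to the left of every point, so that the bulk of rises lie near 0 on the second scale, while Tet1, Kdm4d, Hdac11 and Dnmt3c are below -0.9 on both.

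The DNA methylation writers Dnmt1 and Dnmt3a held the highest levels of the 71 genes. The RefSeq sequences before the starts of a writer and an eraser that rose with TMM scaling (Dnmt3a, Tet2), of the eraser Tet1 that fell, and of Dnmt3l, which also fell, show how far the CG pairs that these enzymes act on differ between the promoters of their own genes. Each run is the 250 bases before the RefSeq start on GRCm38.p6, with CG pairs in capitals.
Tet2: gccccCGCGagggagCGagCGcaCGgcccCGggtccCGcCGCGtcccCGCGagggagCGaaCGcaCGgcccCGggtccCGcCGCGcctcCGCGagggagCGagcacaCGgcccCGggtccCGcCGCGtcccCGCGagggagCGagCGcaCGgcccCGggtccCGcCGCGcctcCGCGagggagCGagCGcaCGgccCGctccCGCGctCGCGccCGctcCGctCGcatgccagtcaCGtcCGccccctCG
Tet1: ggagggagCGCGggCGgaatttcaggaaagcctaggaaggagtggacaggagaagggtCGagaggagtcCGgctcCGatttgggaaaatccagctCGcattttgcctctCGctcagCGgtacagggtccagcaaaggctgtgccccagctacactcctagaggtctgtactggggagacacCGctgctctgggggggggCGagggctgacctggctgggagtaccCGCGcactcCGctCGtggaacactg
Dnmt3a: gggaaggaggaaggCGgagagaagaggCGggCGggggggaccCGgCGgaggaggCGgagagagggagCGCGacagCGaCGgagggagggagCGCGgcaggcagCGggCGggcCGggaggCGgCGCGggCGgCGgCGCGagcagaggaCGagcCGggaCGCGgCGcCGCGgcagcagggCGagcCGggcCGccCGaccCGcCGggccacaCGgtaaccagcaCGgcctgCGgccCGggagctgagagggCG
Dnmt3l: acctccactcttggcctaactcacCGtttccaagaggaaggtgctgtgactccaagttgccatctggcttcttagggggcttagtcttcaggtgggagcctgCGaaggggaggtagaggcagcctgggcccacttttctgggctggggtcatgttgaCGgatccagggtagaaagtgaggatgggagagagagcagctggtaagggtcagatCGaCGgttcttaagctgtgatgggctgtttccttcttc
The window of Tet2 (chr3:133544391-133544640, minus strand) held 51 CG pairs and that of Dnmt3a (chr12:3806910-3807159, plus strand) 40. The window of Tet1 (chr10:62887325-62887574, minus strand) held 15 and that of Dnmt3l (chr10:78042037-78042286, plus strand) 5. The Tet1 window lies well inside the GENCODE bounds of the gene, whose 5' end is at 62908996, so it belongs to an internal start. The windows of Tet2, Dnmt3a and Dnmt3l lie nearer to the 5' ends of their genes. RefSeq windows of 300 bases around the start (250 before, 50 after) matched 58 of the 71 members, and where a gene had several, the one with most CG pairs was taken. The median was 23.5 CG pairs for members and 8.0 for 27025 genes. Fewer than 10 CG pairs were found in 4 of 58 members (6.9%) against 54.2% of all genes. The 27025 genes were not filtered on reads or gene type, while the members are protein-coding and all passed the filter on low counts. The 2 sets therefore differ in more than membership, here and in the motif shares below. The median was 29.5 in writers and 21 in erasers, and 29 in members that rose, 23 in those not called and 17 in 6 that fell, with TMM scaling. By background share it was 28 in 25 members under 5% and 17 in 11 members at 20% or more. Counts ran from 1 (Setd5) to 65 (Kdm7a) in members that rose. In those that fell they ran from 6 (Dnmt3l) to 35 (Hdac7), so the ranges overlapped. Direction and background share cannot be told apart here. On either strand AGGAAGT, the core letters of an ETS factor site, was in 1 member (Kat2b, 1.72%) and in 9.43% of all windows. ATGGCGG, of the YY1 type, was in 3 (Kat8, Kdm5c and Setd6, 5.17%) against 4.37%, and GCATGCG, of the NRF1 type, in 4 (Dnmt1, Kmt5a, Sirt7 and Tet2, 6.9%) against 3.72%. No motif contains another, and a match is a description of the window only.

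Dnmt3a, on chromosome 12 from 3806007 to 3914443 (plus strand, GRCm38), had levels of 27.8, 24.8, 28.9, 27.1 and 29.1 in control replicates 1 to 5 and 33.2, 34.9, 35.3, 32.5 and 36.6 in knockdown-labelled replicates 1 to 5. The groups did not overlap, and its log2 fold change was 0.33 (SE 0.058, adjusted p = 1.02e-05), or 0.08 (SE 0.031, adjusted p = 0.0316) with low-share scaling. Dnmt1, which copies methylation to the new strand after replication, ranged from 27.2 to 30.2 in control and from 34.3 to 36.7 in knockdown-labelled libraries. Its fold change was 0.27 (SE 0.058, adjusted p = 1.29e-04) with TMM and 0.02 (adjusted p = 0.641) with low-share scaling. The other de novo enzymes were low. Dnmt3b stood at 1.66 ± 0.324, with a background share of 27.7%, and did not pass the test with TMM (-0.30, adjusted p = 0.193). It fell by 0.55 with low-share scaling (adjusted p = 0.0335) and was not called with background subtracted (-0.30, adjusted p = 0.452). Dnmt3c, a rodent copy of Dnmt3b known from the male germ line, fell from 1.12 ± 0.373 to 0.512 ± 0.204 (log2 fold change -1.12, SE 0.38, adjusted p = 0.0115), with a background share of 51.9%, and 23.6% of its 50-base stretches are shared with Dnmt3b. Dnmt3l, a cofactor of the de novo enzymes without catalytic activity, fell from 1.80 ± 0.437 to 1.06 ± 0.362 (-0.77, SE 0.27, adjusted p = 0.0131), with a share of 29.5% and overlapping groups. Without control replicate 4 or knockdown-labelled replicate 2 its adjusted p was 0.0502 and 0.0510.

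The TET erasers split 3 ways with TMM scaling. Tet3, the most abundant, had levels of 12.8, 12, 12.4, 13 and 13.3 in control and 12.4, 14.3, 13.9, 12.5 and 14.1 in knockdown-labelled replicates 1 to 5. These overlapped (log2 fold change 0.08, SE 0.059, adjusted p = 0.226), while Tet3 fell by 0.16 with low-share scaling (adjusted p = 0.000611). Tet2 had 6.91, 6.55, 7.14, 7.00 and 7.61 in control and 8.31, 8.64, 8.27, 7.72 and 8.16 in knockdown-labelled replicates. These did not overlap (0.22, SE 0.061, adjusted p = 0.00191), though the value was -0.02 (adjusted p = 0.678) with low-share scaling. Tet1, on chromosome 10 from 62804570 to 62908996 (minus strand), had 1.10, 1.75, 1.29, 1.49 and 0.994 in control and 0.856, 0.490, 0.415, 0.859 and 0.507 in knockdown-labelled replicates. Every knockdown-labelled library was below every control library, with a log2 fold change of -1.08 (SE 0.19, adjusted p = 8.16e-05). It remained lower with low-share scaling (-1.33, SE 0.25, adjusted p = 0.00103) and with background subtracted (-1.39, SE 0.25, adjusted p = 0.000921), although 43.4% of its reads were within the estimated background. Of the 7 members that fell with TMM scaling, it was the 1 that also fell after subtraction. With background density as a covariate no member was called lower, Tet1 included, and densities do not overlap between the groups. Within the control group the levels of Tet1 had the same order as background density (0.522, 0.816, 0.580, 0.653 and 0.425 in replicates 1 to 5). In knockdown-labelled replicates 1 to 5 the density was 0.313, 0.223, 0.188, 0.343 and 0.216. The part of density in this fall, and how exact the subtraction is at such a share, was not tested.

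**Figure D4:**
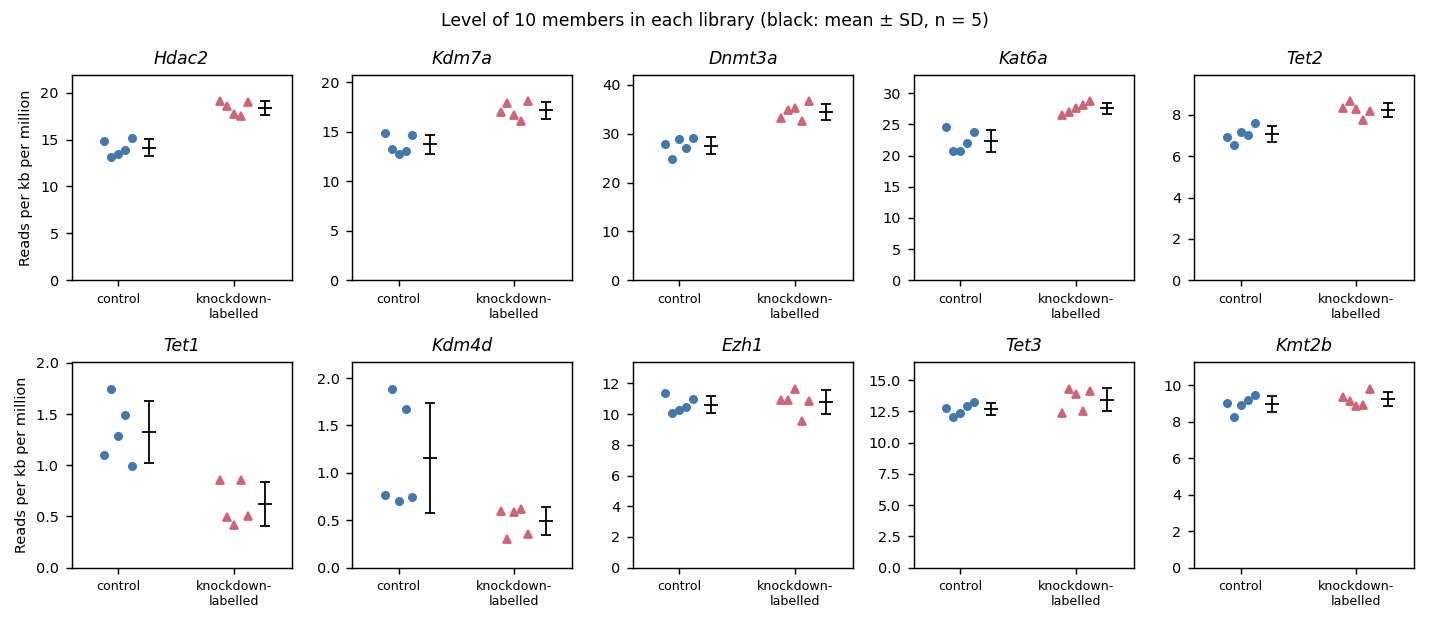
Levels of 10 members in each library (reads per kb of exon per 1000000, axes from 0), with the mean and SD of 5 libraries in black. The groups are apart for Hdac2, Kdm7a, Dnmt3a, Kat6a and Tet2 (higher) and for Tet1 and Kdm4d (lower), and overlap for Ezh1, Tet3 and Kmt2b.

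Summed levels of the 4 DNA methylation writers were 59.4 ± 2.46 in control and 71.5 ± 1.87 in knockdown-labelled libraries, and those of the 3 TET erasers 21.1 ± 0.610 and 22.3 ± 0.953. The ratio of the sums, which no scaling of a library changes, ran from 2.68 to 2.97 in control and from 3.02 to 3.33 in knockdown-labelled libraries. The sums hold background reads, which were denser in control libraries, and their part in the ratio was not tested. For all writers over all erasers the ratio was 1.07 ± 0.0157 and 1.10 ± 0.0146, with overlapping ranges.

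At H3K4, 3 of 7 writers and 3 of 6 erasers rose with TMM scaling, and with low-share scaling none of the 13 rose and Kmt2a, Kmt2b and Kdm5b fell. Median background shares were 4.12% for these writers and 5.49% for these erasers. Of all tested genes 75.5% under a 5% share and 15.2% between 5% and 20% rose with TMM. With low-share scaling 1.62% of all genes rose and 44.6% fell. Kmt2d, the main writer by level, ranged from 17.4 to 20.9 in control and from 21 to 23.9 in knockdown-labelled libraries (0.21, SE 0.058, adjusted p = 0.0021), against -0.04 (adjusted p = 0.443) with low-share scaling. Kmt2c, its partner in enhancer methylation, and the monomethylase Setd7 also rose with TMM, with fold changes of 0.20 and 0.26. Kmt2a and Kmt2b, the MLL proteins that bind unmethylated CG-rich promoters, had TMM values of 0.09 and 0.04 (adjusted p = 0.183 and 0.634), though Kmt2a passed without control replicate 5 (0.15, adjusted p = 0.0398). With background subtracted they fell by 0.15 and 0.19 (adjusted p = 0.0131 and 0.015). Setd1a, of which 51.2% of 50-base stretches also occur in the gene model Gm49388, stood at 2.52 ± 0.228 and was not called. Among the erasers Kdm1a, the amine oxidase LSD1, rose from 12.4 ± 1.02 to 15.2 ± 1.30 with TMM (0.29, SE 0.070, adjusted p = 0.000476) and stood at 0.05 (adjusted p = 0.557) with low-share scaling. Kdm5c, an X-linked demethylase, and Kdm5a rose by 0.21 and 0.24 with TMM and had low-share values of -0.0411 and -0.0015. Kdm5d, the Y-linked paralogue of Kdm5c, had levels of 2.42 to 3.26 in all 10 libraries.

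At H3K9, both writers rose with TMM, Setdb1 by 0.23 (SE 0.067, adjusted p = 0.00349) and Setdb2 by 0.26 (SE 0.10, adjusted p = 0.0284), and neither did with low-share scaling (-0.02 and 0.02). Setdb1, which silences retroelements with its partner Trim28, ranged from 8.61 to 11.1 in control and from 11.7 to 12.5 in knockdown-labelled libraries. Of the 7 erasers 3 rose with TMM. Median background shares were 5.61% for the H3K9 writers and 4.09% for the erasers. Beside them, 75.5% of all tested genes under a 5% share and 15.2% between 5% and 20% rose. Kdm7a, a demethylase of H3K9 and H3K27, had levels of 14.8, 13.2, 12.8, 13.1 and 14.7 in control and 17, 17.9, 16.7, 16.1 and 18.1 in knockdown-labelled replicates. All of the second group were above all of the first (0.32, SE 0.061, adjusted p = 2.46e-05), and the value was 0.07 (adjusted p = 0.148) with low-share scaling. Kdm4c (0.30, adjusted p = 0.000556) and Kdm4a (0.18, adjusted p = 0.0155) also rose with TMM and had 0.05 and -0.07 with low-share scaling. Kdm4d, a testis-enriched member of the Kdm4 group, had 0.764, 1.89, 0.708, 1.68 and 0.749 in control and 0.595, 0.301, 0.590, 0.618 and 0.357 in knockdown-labelled replicates. Its control values fell into a high and a low set, and the groups did not overlap (-1.21, SE 0.36, adjusted p = 0.0037), at a background share of 51.5%. The high set, control replicates 2 and 4, had the highest background densities of the control libraries (0.816 and 0.653, against 0.425 to 0.580). The part of density in this split was not tested. With background subtracted Kdm4d was not called (-1.77, SE 0.77, adjusted p = 0.128). Kdm3b was not called with TMM (0.08, adjusted p = 0.264) and fell by 0.17 with low-share scaling (adjusted p = 0.00137).

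At H3K27 no writer was called with TMM. Ezh1, the Polycomb methylase of resting cells, had levels of 11.4, 10.1, 10.2, 10.5 and 11.0 in control and 10.9, 10.9, 11.7, 9.56 and 10.8 in knockdown-labelled replicates. The groups overlapped (0.02, SE 0.066, adjusted p = 0.801). Ezh1 has a background share of 3.86%. It fell by 0.23 with low-share scaling (SE 0.053, adjusted p = 0.000777) and by 0.21 with background subtracted (SE 0.053, adjusted p = 0.00796). Ezh2, the form of dividing cells, stood at 5.21 ± 0.448 and 5.41 ± 0.378 and was not called (0.06, SE 0.085, adjusted p = 0.587). Its level was below that of Ezh1 in every library. Of the erasers Kdm6a, the X-linked demethylase UTX, rose with TMM (0.18, SE 0.077, adjusted p = 0.0406) and was at -0.07 with low-share scaling. The rise did not pass in 6 of the 10 fits without a library (control replicate 1, 2, 3 or 4, knockdown-labelled replicate 2 or 3), where its adjusted p was 0.0502 to 0.0703. Kdm6b, the inducible JMJD3, was low at 2.17 ± 0.119 and not called. The ratio of writers to erasers was 2.21 ± 0.123 in control and 2.05 ± 0.104 in knockdown-labelled libraries, with overlapping ranges.

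At H3K36 and H4K20, Setd2 rose from 19.8 ± 1.99 to 23 ± 1.25 with TMM (0.22, SE 0.061, adjusted p = 0.00267), and its low-share value was -0.03 (adjusted p = 0.569). The H3K36 demethylases Kdm2a and Kdm2b, which bind CG-rich promoters through a zinc finger, rose by 0.28 and 0.15 with TMM and stood at 0.03 and -0.10 with low-share scaling. For H4K20, the monomethylase Kmt5a rose by 0.26 (SE 0.070, adjusted p = 0.00156) and Kmt5b by 0.16 (SE 0.067, adjusted p = 0.0371) with TMM, and Kmt5c was not called (-0.03). With low-share scaling neither Kmt5a nor Kmt5b was called and Kmt5c fell by 0.28 (adjusted p = 0.0163). The H3K36 sums of writers over erasers gave a ratio of 1.10 in both groups (SD 0.108 and 0.072).

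**Figure D5:**
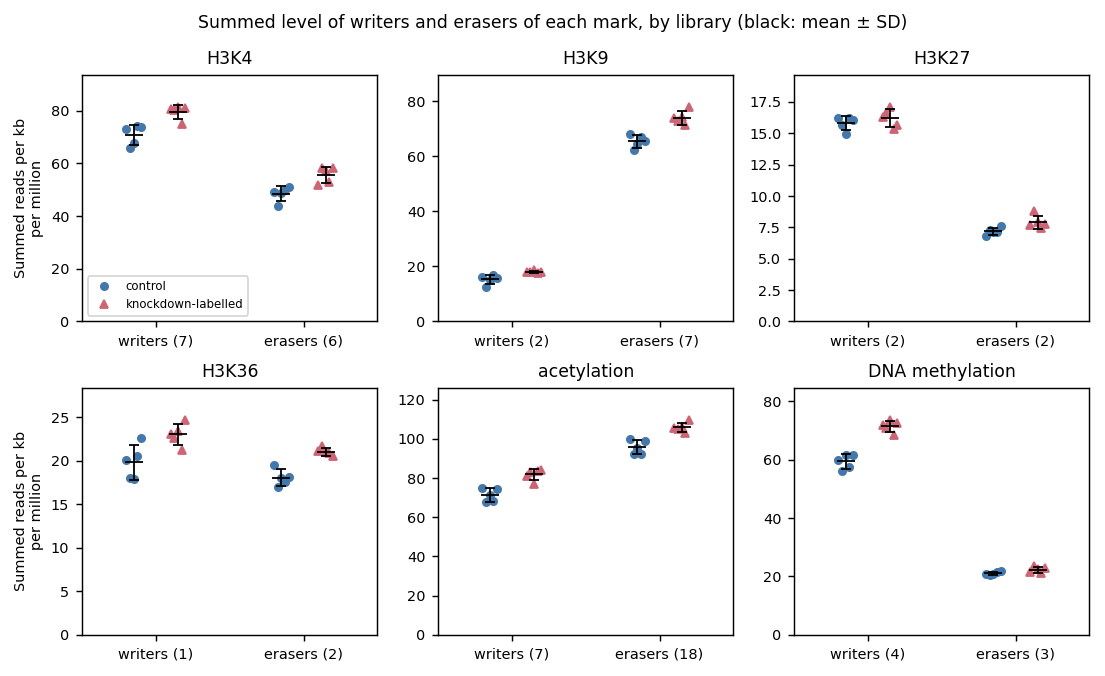
Summed level of the writers and of the erasers of each mark in each library (reads per kb of exon per 1000000, axes from 0), with the number of genes in parentheses and mean ± SD in black. Writer sums exceed eraser sums at H3K4, H3K27 and DNA methylation in each library, eraser sums exceed writer sums at H3K9 and acetylation, and with TMM scaling every knockdown-labelled sum is above every control sum except for the writers of H3K27 and H3K36 and the erasers of H3K27 and DNA methylation, whose groups overlap.

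Among acetyltransferases, 3 of 7 rose with TMM, at a median background share of 4.93%. Beside them, 75.5% of all tested genes under a 5% share and 15.2% between 5% and 20% rose. Kat6a (MOZ), which acetylates H3 and is known for its part in myeloid stem cells, had 24.5, 20.8, 20.7, 22.1 and 23.7 in control and 26.5, 27, 27.6, 28.1 and 28.7 in knockdown-labelled replicates. The groups did not overlap (0.30, SE 0.059, adjusted p = 3.87e-05), and the value was 0.06 (adjusted p = 0.237) with low-share scaling. Kat7 (0.18, adjusted p = 0.0225) and the H4K16 acetylase Kat8 (0.25, adjusted p = 0.0434) rose with TMM and had -0.06 and 0.01 with low-share scaling. Kat6b, the paralogue of Kat6a, stood at 3.57 ± 0.251 and 3.31 ± 0.257 and was not called with TMM (-0.11, adjusted p = 0.208). It fell with low-share scaling (-0.35, SE 0.075, adjusted p = 0.000375) and with background subtracted (-0.26, SE 0.075, adjusted p = 0.0219). Kat2a, Kat2b and Kat5 were not called on either scale.

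Hdac2, on chromosome 10 from 36974544 to 37001889 (plus strand), had the largest rise of the 71 genes with TMM. Its levels were 14.9, 13.1, 13.4, 13.9 and 15.2 in control and 19.1, 18.6, 17.7, 17.5 and 19.0 in knockdown-labelled replicates, with no overlap. The log2 fold change was 0.38 (SE 0.067, 95% interval 0.24 to 0.51, adjusted p = 9.72e-06), and 0.13 (SE 0.055, adjusted p = 0.0441) with low-share scaling. With background subtracted it was 0.14 (SE 0.056, adjusted p = 0.088). Hdac5, a class II deacetylase, rose by 0.14 with TMM (SE 0.061, adjusted p = 0.0449) and fell by 0.11 with low-share scaling (adjusted p = 0.0428). Hdac7 and Hdac11 fell on both scales, by 0.48 and 0.92 with TMM (adjusted p = 0.0151 and 0.00882). Hdac11 had 1.28, 1.24, 0.908, 0.527 and 1.39 in control and 0.442, 0.537, 0.570, 0.643 and 0.620 in knockdown-labelled replicates, so that 1 control library lay inside the other group. Their background shares were 30.7% and 51.2%, and neither was called with background subtracted. Hdac7 was not called without knockdown-labelled replicate 4 (adjusted p = 0.0515).

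Sirtuins are NAD-dependent deacetylases and link acetylation to metabolism. Sirt2, Sirt1 and Sirt7 rose with TMM. Sirt2 ranged from 19.5 to 23.2 in control and from 24.6 to 27.3 in knockdown-labelled libraries (0.28, SE 0.062, adjusted p = 0.000223), with 0.03 under low-share scaling. Sirt1, the nuclear deacetylase of many transcription factors, rose from 4.69 ± 0.680 to 5.90 ± 0.277 with overlapping groups (0.33, SE 0.095, adjusted p = 0.00316), with 0.08 under low-share scaling. Though counted among the erasers, the mitochondrial Sirt3, Sirt4 and Sirt5 do not act mainly on histones. Of these Sirt5 fell, from 1.74 ± 0.327 to 1.25 ± 0.243 (-0.48, SE 0.18, adjusted p = 0.020), at a share of 28.0%, and it was not called without control replicate 2 or 4 or knockdown-labelled replicate 2 or 3 (adjusted p = 0.0601 to 0.0769). Summed over 18 genes, the erasers of acetylation stood at 95.7 and 106 in the groups and the 7 writers at 71.3 and 81.8, a ratio of 0.745 ± 0.00969 and 0.772 ± 0.0329, with overlapping ranges.

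Of the 7 members without a settled mark, Kmt2e (MLL5), Setd3 (an actin histidine methyltransferase) and Setd5 rose with TMM, by 0.20, 0.26 and 0.23. Their low-share values were -0.04, 0.01 and -0.01. Kdm8, Setd4 and Setd6 were not called, and with low-share scaling Setd4 fell by 0.56 (adjusted p = 0.0323).

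Partner subunits and cofactors of these enzymes also had small positive medians with TMM, and negative ones with low-share scaling. Their lists had median background shares of 2.35% to 6.96%, and of all tested genes 75.5% rose under a 5% share and 15.2% between 5% and 20%. Whether the lists differ from such genes was not tested. Of 10 Polycomb (PRC2) partners 6 rose and none fell (median 0.18), Rbbp7, a histone chaperone, among them (0.33, SE 0.064). Of 12 genes listed as partners in the COMPASS and MLL complexes, which hold the H3K4 methylases, 9 rose and none fell (median 0.19). Wdr82 was among the rises (0.34, SE 0.070), as was Kansl1 (0.18), which is known mainly from a complex of the acetyltransferase Kat8. Of 22 subunits of deacetylase corepressor complexes 15 rose and 1 fell (median 0.19). Mbd2, which binds methylated DNA in the NuRD complex, rose by 0.35 (SE 0.060, adjusted p = 5.91e-06) and by 0.10 with low-share scaling (adjusted p = 0.0327). Rcor2, a corepressor paralogue with a background share of 36.1%, fell by 1.05 (SE 0.28, adjusted p = 0.00161) and by 1.33 with background subtracted (adjusted p = 0.036). Of 19 acetyltransferase partners 9 rose and none fell (median 0.19), Epc2 among them (0.41, SE 0.082). Of 10 DNA methylation cofactors 4 rose and none fell (median 0.15), among them the remodeller Hells (0.30, SE 0.087).

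With low-share scaling the medians of these 5 lists were -0.0639, -0.0563, -0.0573, -0.0554 and -0.0971, in the same order, against -0.342 for all genes. Of 21 writers outside the naming rule 12 rose and 1, Smyd3, fell with TMM (median 0.19), and of 8 erasers outside it 5 rose and 1, Hr, fell (median 0.19). Their low-share medians were -0.0556 and -0.0594. Ncoa3, a nuclear receptor coactivator, rose by 0.27 and the demethylase Jmjd1c by 0.18 with TMM, and their low-share values were 0.03 and -0.06. Smyd3 fell by 0.34 with TMM (adjusted p = 0.00644) and by 0.48 with background subtracted (adjusted p = 0.0103). Hr fell by 0.48 with TMM (adjusted p = 0.0245), but not without control replicate 2, 3 or 4 or knockdown-labelled replicate 2 or 3 (adjusted p = 0.0528 to 0.109).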

How the data were processed

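Total RNA libraries, made with a random-primed kit that marks strand (per the labels' protocols), were compared between 5 control and 5 knockdown-labelled samples. The values the authors deposited were raw counts of reads for each gene, whole numbers without normalization. The submitters' processing notes name bcl2fastq and the build GRCm38 (mm10). Not given in the sources used here were the aligner, the counter and its strand setting, and the annotation, so antisense and overlapping genes cannot be told apart. Library totals were 4321316 to 6636082 reads. The 92 ERCC entries (0 to 2 reads per library) were left out. Names, lengths and coordinates came from GENCODE M21, which matched 55230 of 55471 genes.

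All genes were filtered with filterByExpr, scaled with TMM and tested with edgeR 4.0.16 (R 4.3.3; robust quasi-likelihood fit, group as the only term, Benjamini-Hochberg adjustment over all tested genes, threshold 0.05). Fold changes are log2, knockdown-labelled minus control. The test was tried first on simulated counts. Other fits used DESeq2 1.42.0, upper-quartile scaling, library totals, no filter, 5 CPM in 5 libraries, lane 7 (replicates 1 to 3) or lane 8 alone, lane or replicate number as a term, each library left out, scaling on genes under a 5% background share, with and without subtraction of background reads, and background density as a covariate. Promoter sequences came from RefSeq on GRCm38.p6. Python 3.11.15 and matplotlib 3.10.9 drew the figures.

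The members, lists and tests were chosen with earlier results of these data known. Named in the comparison of groups were up to 8 of the largest rises and falls among called members, the writer and eraser of each mark with the highest control level, members called alike in both fits scaled on low-share genes, and members with a library far from its group. From each partner list came a called gene of smallest p and, chosen after its values were seen, each that fell. Tet2 and other members given with a value were also chosen after their values were seen.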

Additional observations from a re-analysis of the deposited data

Results flagged for a closer look

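Each member was examined in each group for a library far from the other 4 (Dixon's test at the 95% level, critical value 0.71 for 5 samples). Of 142 such groups 6 had one, where chance gives about 1 in 20. Values are reads per kb of exon per 1000000, and none of these members but Setdb1 passed the test between groups with TMM scaling. The de novo methyltransferase Dnmt3b stood at 1.89 in knockdown-labelled replicate 1, where the other 4 lay between 1.2 and 1.25. Kdm8 stood at 2.93 in the same library, against 1.26 to 1.62 in the other 4. The deacetylase Hdac9 was at 4.22 in control replicate 3, against 3.28 to 3.55. The H3K9 demethylase Kdm3b was at 13.7 in knockdown-labelled replicate 3, against 11.9 to 12.4. Sirt6, a nuclear sirtuin, was at 3.98 in knockdown-labelled replicate 5, against 2.66 to 2.86. The H3K9 methylase Setdb1 was at 8.61 in control replicate 2, against 10.5 to 11.1, and its rise passed the test without that library too.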

How the results depend on the processing

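With TMM scaling 31 members were higher and 7 lower, writers 13 and 1, erasers 15 and 5, with medians of 0.173 for writers and 0.092 for erasers. Upper-quartile scaling gave 9 members higher, writers 3 and 2, erasers 6 higher, and medians of 0.027 and -0.0542. Library totals gave members 4 and 18, writers 2 and 7, erasers 2 and 9, and medians of -0.0318 and -0.114. With no filter 4 members and 3 erasers were lower, and the medians were 0.303 and 0.222. The stricter filter gave members 12 and 4 (66 tested), writers 4 higher, erasers 7 and 3, and medians of 0.0661 and -0.017. DESeq2 gave medians of 0.242 and 0.162. Lane 7 alone gave 4 members, 0 writers and 3 erasers lower and a writer median of 0.222. Lane 8 alone gave members 0 and 1, writers 0 and 0, erasers 0 and 1. Scaling on low-share genes gave members 2 and 21, writers 1 and 7, erasers 1 and 12, and medians of -0.0723 and -0.154. Subtraction as well gave 0 members higher, writers 0 and 4, erasers 0 and 3, and medians of -0.0451 and -0.0916. Background density as a covariate gave 0 higher and 0 lower in every class (members 4 and 1 at an unadjusted p under 0.05) and medians of 0.0478 and 0.047, and densities do not overlap between the groups. With classes by family name alone 2 writers were lower. Without Sirt3, Sirt4 and Sirt5, 15 of 35 erasers were higher and 4 lower, with a median of 0.102. Where edgeR gave 0, unadjusted counts higher and lower were 16 and 3 for members in lane 8 and 2 and 16 after subtraction. The median of all genes moved from -0.0952 to -0.241 with upper-quartile scaling, -0.301 with totals, -0.342 with low-share scaling and 0.0357 with no filter. Shares of all genes called stand above for TMM, each lane, low-share scaling and subtraction. For the other fits they were not taken, so those counts describe the fits and are no result about the members. Without each library in turn 25 to 34 members were higher and 5 to 7 lower, writers 11 to 16 and 1 to 1, erasers 11 to 15 and 4 to 5, with medians of 0.172 to 0.218 and 0.0797 to 0.128.

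Of the 71 members 53 had a positive fold change with TMM scaling, 23 with library totals, 15 with low-share scaling, 26 with subtraction as well and 49 with density as a covariate. The values below are only those of the 35 named members and 10 partner genes that changed sign and passed the test on at least 1 of the 2 fits. With library totals these were Ezh1 -0.185, Jmjd1c -0.0238, Kdm3b -0.129, Kdm4a -0.0273, Kdm5c -0.000401, Kdm6a -0.0247, Kmt2a -0.114, Kmt2b -0.167 and Tet3 -0.123. With low-share scaling these were Ezh1 -0.225, Hdac9 -0.202, Jmjd1c -0.0646, Kdm3b -0.17, Kdm4a -0.0679, Kdm5c -0.0411, Kdm6a -0.0654, Kmt2a -0.155, Kmt2b -0.208, Kmt2d -0.0352, Setd2 -0.0302, Setdb1 -0.0154, Tet2 -0.0237 and Tet3 -0.164. With subtraction as well these were Ezh1 -0.213, Jmjd1c -0.0791, Kdm3b -0.161, Kdm4a -0.0659, Kdm5c -0.0359, Kmt2a -0.149, Kmt2b -0.187, Kmt2d -0.0409, Setd2 -0.0357 and Tet3 -0.159. With density as a covariate these were Dnmt3l 0.0935, Hells -0.15, Hr 0.282, Jmjd1c -0.0468, Kdm4d 0.223, Setd2 -0.0307 and Sirt5 0.111. The cause was not tested. Replicate numbers are no pairing here: same-numbered libraries correlated at -0.0984, -0.213, 0.0132, 0.152 and 0.16 in their deviations, and not every library correlated best with its own number. The replicate block gave 29 members higher and 7 lower, and changed no call of the 35 named members.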
